A study of Mus musculus with 2 samples.

Results

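The Mir148 and Mir152 family comprises Mir148a, Mir148b and Mir152, 3 miRNA genes of the mouse. Its members were taken as the rows of the deposited count tables whose Ensembl gene identifiers map to these symbols in GENCODE, and all 3 were found among 1973 counted genes. Small RNA came from embryonic facial prominence, the tissue that builds the face and jaws. The mice were B6NCrl embryos of day 15.5, of both sexes, with no treatment or altered gene named in the labels. They form a single group of 2 biological replicates, in which replicate 1 combined 78 embryos and replicate 2 combined 62. Each library is thus an average over many embryos, and the design allows levels within the tissue and a comparison of pool with pool.

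A miRNA is cut from a hairpin transcript as a short strand that guides Argonaute proteins to messenger RNAs, chiefly through pairing of its seed, bases 2 to 8. In this family the guide is the 3p strand, from the 3′ side of the hairpin. The family is known for lowering Dnmt1, the maintenance DNA methyltransferase, and miR-148a is also known from lipid metabolism in liver and from tolerance of B cells.

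The 3p strands are shown first because they define the family. The capitals mark the seed.
miR-148a-3p: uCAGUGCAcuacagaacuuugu
miR-148b-3p: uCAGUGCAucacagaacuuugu
miR-152-3p: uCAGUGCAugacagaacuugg
The seed CAGUGCA was the same in all 3, and a site complementary to it reads UGCACUG. Among 1738 mature mouse miRNAs of the RefSeq table (GRCm38.p6), these 3 were the ones with this seed. Outside the seed the strands differed at few positions, counted from 1 at the 5′ end of the miRNA. Mir148a and Mir148b differed by C9U and U10C, so that 20 of 22 bases were identical. Mir148b and Mir152 differed by C10G and U20G over 21 shared positions, and Mir148a and Mir152 by C9U, U10G and U20G.

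The 5p strands, which come from the other side of each hairpin, were less alike, and their seeds are again in capitals.
miR-148a-5p: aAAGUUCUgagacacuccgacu
miR-148b-5p: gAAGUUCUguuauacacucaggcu
miR-152-5p: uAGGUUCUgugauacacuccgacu
Mir148a and Mir148b shared the 5p seed AAGUUCU, while that of Mir152 was AGGUUCU. In global alignments the 5p strands were 75.0% to 79.2% identical, against 81.8% to 90.9% for the 3p strands. The deposited counts are given per hairpin gene, so reads of the 3p and 5p strands could not be separated.

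The hairpins are printed with the 3p strand in capitals, to show where the guide sits in each precursor.
Mir148a: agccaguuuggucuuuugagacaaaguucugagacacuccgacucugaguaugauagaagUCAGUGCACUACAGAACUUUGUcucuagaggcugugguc
Mir148b: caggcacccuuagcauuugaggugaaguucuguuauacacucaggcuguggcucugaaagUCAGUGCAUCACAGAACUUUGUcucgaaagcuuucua
Mir152: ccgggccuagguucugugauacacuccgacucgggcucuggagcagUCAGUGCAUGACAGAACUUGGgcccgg
The hairpin of Mir152 was the shortest, at 73 bases against 99 for Mir148a and 97 for Mir148b, and the richest in G and C, at 61.6% against 45.5% and 45.4%. Between 13 and 16 bases separated the arms. The longest stretch that a member shared with any other of 1005 hairpins in the table was 15 bases, between Mir148a and Mir148b, and 12 bases for Mir152. No mature strand of the family occurred in another hairpin, so an exact read of a full strand has 1 place of origin in this table. Whether reads with mismatches were counted to the wrong member, above all reads of the abundant Mir148a to Mir148b, was not tested, and this bears on the level of Mir148b and on its ratios.

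**Figure D1:**
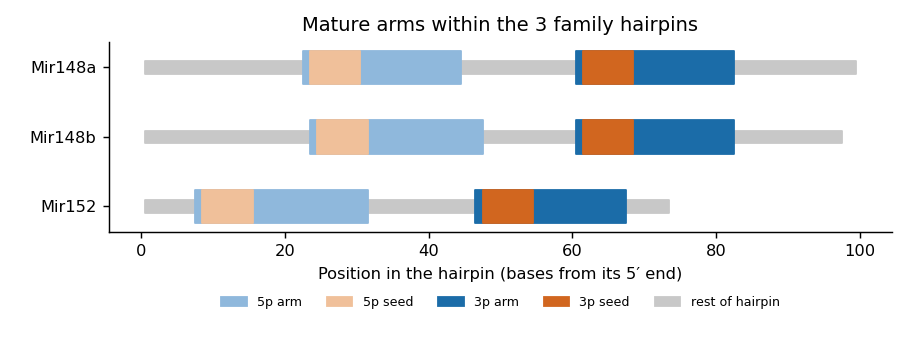
Each bar is the hairpin of 1 gene, with the position in bases from its 5′ end on the x axis, the 5p and 3p arms in blue and their seeds in orange. The 3p arm starts at base 61 in Mir148a and Mir148b and at base 47 in the shorter Mir152.

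The 3 genes lie on 3 chromosomes, and 2 of them sit at matching places in paralogous host genes (mm10, GENCODE M21). Mir148b, at chr15:103285125-103285221 on the plus strand, lies in intron 1 of Copz1, and Mir152, at chr11:96850393-96850465 on the plus strand, lies in intron 1 of Copz2. Copz1 and Copz2 encode the zeta subunits of coatomer, the coat of vesicles that return cargo from the Golgi to the endoplasmic reticulum. The introns differed in size: that of Copz2 spans 676 bases and that of Copz1 spans 16159 bases. Mir152 starts 523 bases after the annotated start of its host and Mir148b 12411 bases after. All 4 annotated Copz1 transcripts carry Mir148b in their first intron, while 3 of 5 Copz2 transcripts carry Mir152.

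Mir148a, at chr6:51269812-51269910 on the minus strand, lies outside other genes on its strand. The nearest protein-coding gene, Nfe2l3, is 162.8 kb away. None of the 3 is part of a tight miRNA cluster. The nearest other counted miRNA gene was 351.7 kb from Mir148a (Gm22914), 65.2 kb from Mir148b (Mir6963) and 213.3 kb from Mir152 (Mir8103). The host transcripts themselves were not measured, since these libraries hold small RNA.

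The libraries held 2978463 assigned reads in replicate 1 and 6408008 in replicate 2, and 333 genes had at least 10 reads in both. Levels are given as CPM, the counts per 1000000 assigned reads after scaling between libraries. A count of 3 reads, taken as the floor, equals 1.00 CPM in the first library and 0.470 CPM in the other. Of the tissue markers checked, 5 of 5 epithelial, 4 of 4 mesenchymal, 2 of 2 cartilage and 3 of 3 smooth muscle and vessel genes passed this filter. So did 2 of 3 counted striated muscle genes and 0 of 5 counted neural genes. Reads mapped to several places were not counted to genes, and their part in the low neural counts was not tested. These counts therefore do not show that neural tissue was absent. In a bulk tissue a lower level from fewer cells of a type and one from less RNA per cell cannot be told apart.

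All 3 members were well above the floor, and Mir148a was the main one. Mir148a had 4088 reads in replicate 1 and 8583 in replicate 2, or 1366 and 1346 CPM, with a mean of 1356 ± 14.1 CPM (SD, n = 2). The libraries lay almost level for this gene. Mir152 had 628 and 983 reads, or 209.8 and 154.1 CPM, with a mean of 182.0 ± 39.4 CPM (SD, n = 2). Mir148b had 459 and 741 reads, or 153.4 and 116.2 CPM, with a mean of 134.8 ± 26.3 CPM (SD, n = 2). Both coatomer-hosted members were lower in replicate 2.

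By mean CPM the order was Mir148a, Mir152 and Mir148b, at ranks 94, 166 and 189 of all 1973 counted genes. The median over the 333 detected genes was 180.3 CPM, so Mir152 lay at the middle of the detected genes and Mir148a well above it. Mir148a stood apart from the others by far more than the spread between replicates. Mir152 and Mir148b were neighbours whose ranges nearly touched, with the lower Mir152 value at 154.1 CPM and the higher Mir148b value at 153.4 CPM. Reads of mature miRNAs span the whole molecule and do not accumulate along the gene, but the order was the same per length, with 13696 ± 143 CPM per kb of hairpin for Mir148a, 2493 ± 539 for Mir152 and 1389 ± 271 for Mir148b (SD, n = 2).

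Together the family summed to 1673 ± 79.8 CPM (SD, n = 2), or 0.174% of assigned reads in replicate 1 (95% Clopper-Pearson interval 0.169 to 0.179) and 0.161% in replicate 2 (0.158 to 0.164). With reads that mapped to several places added to the total, the mean share was 0.103% in place of 0.167%. Mir148a supplied 79.0% of family reads in replicate 1 (77.9 to 80.1) and 83.3% in replicate 2 (82.5 to 84.0). Mir152 supplied 12.1% (11.3 to 13.1) and 9.54% (8.98 to 10.1), and Mir148b 8.87% (8.11 to 9.68) and 7.19% (6.70 to 7.71). For every member the intervals of the replicates were separate, with a larger part for Mir148a in replicate 2. These intervals cover counting error only, since each was taken from 1 library and holds no variation between pools. Reads without molecular identifiers are not independent molecules, so the intervals may be too narrow even for counting error.

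**Figure D2:**
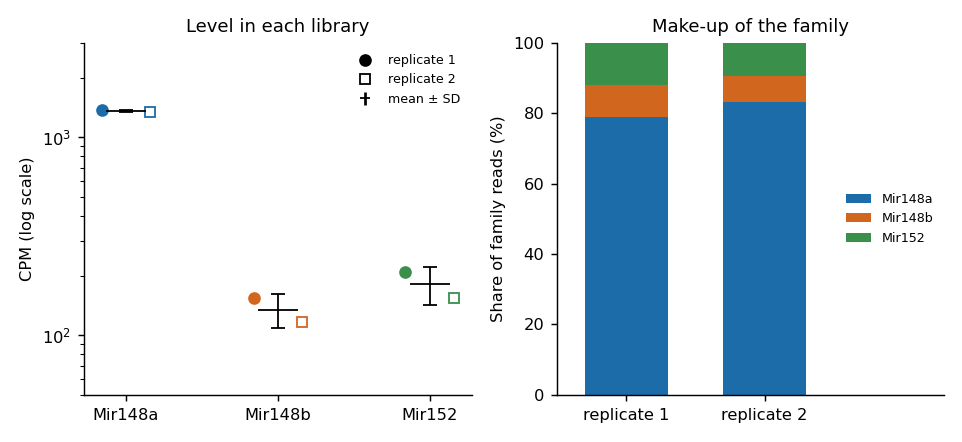
The left panel plots CPM on a log scale for each gene in replicate 1 (filled circles) and replicate 2 (open squares) with mean ± SD over the 2 libraries, and the right panel plots each gene's share of family reads in percent. Mir148a is near 1356 CPM in both libraries, and Mir148b and Mir152 lie at means of 134.8 and 182.0 CPM, each with its replicate 2 value below its replicate 1 value.

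Every read counted to the family lay on the strand of its gene. On the opposite strand there were 0 reads for each member in both libraries. This allows a share of up to 0.0350% for Mir148a in replicate 2, the deepest case, and up to 0.654% for Mir148b in replicate 1, the shallowest. Across all genes 3.30% of assigned reads in replicate 1 and 3.36% in replicate 2 were on the opposite strand. Those reads were concentrated in a few genes counted wholly on that strand, such as Gm25301 (31964 and 68974 reads) and Gm25927 (18439 and 38407 reads). Many other detected genes, Mirlet7i and Mir99a among them, also had 0 opposite reads, so this is no trait of the family.

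The pools were then compared, to ask how far the members differ between replicates of 1 tissue. Mir148b was 1.32-fold and Mir152 1.36-fold higher in replicate 1, while Mir148a was not called. Each gene's reads were tested against the ratio of library sizes by a two-sided exact binomial test with Benjamini-Hochberg adjustment over the 333 detected genes. The test compares these 2 libraries and covers counting error only, since 1 library against 1 leaves no replicate check. It called 53.5% of all detected genes, 27.6% of them as higher in replicate 1 and 25.8% as higher in replicate 2, in shares of all tested. Near the level of Mir148b the calls leaned toward replicate 1. Of 70 detected genes within 2-fold of its mean CPM, 23 were called toward replicate 1, 10 toward replicate 2 and 37 not called. That set includes Mir148b and Mir152. Against that background, 2 of 3 members higher in replicate 1 is no result about the family.

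For Mir152 the log2 ratio of replicate 2 over replicate 1 was −0.44 (95% interval −0.59 to −0.30, exact binomial adjusted p = 1.00e-08). For Mir148b it was −0.40 (−0.57 to −0.23, exact binomial adjusted p = 1.04e-05). For Mir148a it was −0.02 (−0.08 to 0.03, exact binomial adjusted p = 0.555). The median log2 ratio over the members was −0.40, and over all detected genes −0.01. By size of the ratio Mir152 ranked 70 and Mir148b 86 of 333 genes, and Mir148a ranked 315. The median size over all detected genes was 0.21, and the biological coefficient of variation between the libraries was 17.2%. The differences of Mir148b and Mir152 are therefore larger than counting error but within what many other genes showed between the same pools.

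**Figure D3:**
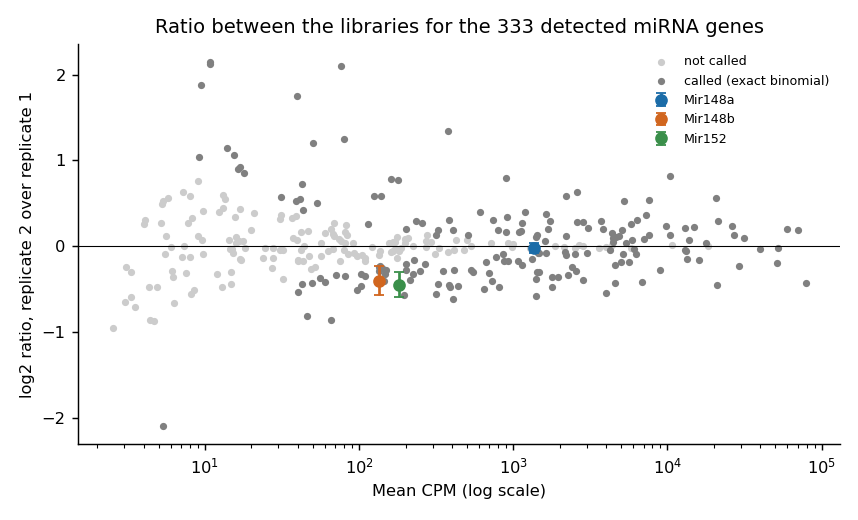
Each point is 1 of 333 detected miRNA genes, with mean CPM on a log x axis and the log2 ratio of replicate 2 over replicate 1 on the y axis, and the members carry 95% counting intervals. Mir148a sits on the 0 line at −0.02, and Mir148b and Mir152 sit below it at −0.40 and −0.44.

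Ratios of 1 member to another within a library do not depend on scaling between libraries. Reads of Mir148a exceeded those of Mir148b 8.91-fold in replicate 1 (95% Clopper-Pearson interval 8.09 to 9.83) and 11.6-fold in replicate 2 (10.7 to 12.5). They exceeded those of Mir152 6.51-fold (5.98 to 7.09) and 8.73-fold (8.17 to 9.34). Mir148a thus gained on both other members in replicate 2, by a log2 change of 0.38 against Mir148b (0.20 to 0.56) and of 0.42 against Mir152 (0.27 to 0.58).

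Mir152 over Mir148b stood at 1.37 in replicate 1 (1.21 to 1.55) and at 1.33 in replicate 2 (1.20 to 1.46). Within each library Mir152 was thus above Mir148b by more than counting error. The log2 change of this ratio between libraries was −0.04, with an interval of −0.27 to 0.18, so a difference was not detectable at this depth. Mir148b and Mir152 thus kept their proportion to each other within counting error, and Mir148a did not keep its proportion to either. With 2 libraries this is a description of 1 contrast. It restates the members' log2 ratios, and 53.5% of all detected genes were called between these libraries. The share of other gene pairs whose ratio changed was not counted, and a link to the host genes was not tested.

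Genes within introns as a class were found on both sides. Of 138 detected intronic genes, the test called 34 toward replicate 1 and 38 toward replicate 2 and left 66 uncalled, with a median log2 ratio of −0.0010. Among 108 detected intergenic genes the counts were 35, 29 and 44, with a median of −0.05.

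The tissue markers were mixed between the same libraries, and within most lists they did not share a direction. Of the 5 epithelial markers, Mir203 (log2 ratio −0.42) and Mir205 (−0.45) were higher in replicate 1, and Mir200c (0.13), Mir429 (0.30) and Mir141 (0.11) were higher in replicate 2. Their sum, most of it Mir203, was 145131 CPM in the first library and 121107 CPM in the second. Of the striated muscle markers Mir206 (−0.41) was higher in replicate 1, Mir133b (−0.17) was not called and Mir1a-1 was not tested, with sums of 7930 and 5975 CPM. Both cartilage markers, Mir140 (−0.05) and Mir455 (−0.35), were higher in replicate 1, with sums of 15342 and 14429 CPM. Among mesenchymal markers Mir214 (−0.16), which makes up most of the sum of 18060 and 16594 CPM, was higher in replicate 1, Mir199a-2 (0.20) and Mir199b (0.28) were higher in replicate 2 and Mir199a-1 (0.35) was not called.

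Among vessel and smooth muscle markers Mir145a (−0.21) was higher in replicate 1, and Mir126a (0.24) and Mir143 (0.04) were higher in replicate 2, with sums of 41976 and 46708 CPM. The erythroid pair was divided between Mir144 (−0.86, 84.9 and 46.9 CPM) and Mir451a (0.59, 111.3 and 167.2 CPM). The leukocyte marker Mir223 (488.2 and 532.7 CPM), the endocrine Mir375 (1742 and 2625 CPM) and the liver miRNA Mir122 (30.4 and 70.1 CPM) were higher in replicate 2. Mir142, the other leukocyte marker planned, had no row under that name. Mir142b, named after its values were seen, was higher in replicate 1 (706.0 and 619.7 CPM, log2 ratio −0.19). All its reads lay on the opposite strand, and whether they come from Mir142 was not tested. The leukocyte markers thus give no clear direction. The 5 counted neural markers, all below the filter, summed to 3.01 and 5.65 CPM. Reads mapped to several places are not in any of these sums. Their loss for markers with numbered copies, such as the Mir124a, Mir9, Mir1a and Mir199a genes, was not tested, so those values are uncertain. The part of these tissues in the ratios of Mir148b and Mir152 was not tested.

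The genes most like each member were found by Euclidean distance in log2 CPM over the 2 libraries, which takes level and ratio together. Nearest to Mir148a were Mir200a (distance 0.10), Mir141 (0.11) and Mir337 (0.12). Mir200a and Mir141 belong to the epithelial Mir200 family, and Mir337 to the imprinted Dlk1-Dio3 locus. Mir141 was also the next gene above Mir148a in mean level, at 1396 ± 73.4 CPM, and Mir200a the next below, at 1327 ± 93.7 CPM (SD, n = 2). The gaps from Mir148a to these neighbours were smaller than the neighbours' SDs but larger than its own SD of 14.1 CPM.

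Nearest to Mir148b were Mir673 (distance 0.08), Mir101a (0.12) and Mir496a (0.12), all 3 also higher in replicate 1, with log2 ratios of −0.29, −0.24 and −0.23. Nearest to Mir152 were Mir128-1 (0.17), a miRNA of neurons within R3hdm1, Mir181a-2 (0.22) and Mir450b (0.26). Their log2 ratios were −0.57, −0.13 and −0.28, and Mir181a-2 was not called. Mir128-2 and Mir181a-1 are also counted genes. Whether reads of Mir128-1 and Mir181a-2 were set aside as mapping to several places was not tested. By level alone Mir152 lay between Mir132 (185.6 ± 2.13 CPM) and Mir672 (180.3 ± 5.33 CPM), and Mir148b between Mir673 (135.1 ± 19.2 CPM) and Mir7j (125.8 ± 35.7 CPM) (all SD, n = 2). Each of these 4 gaps was smaller than the member's own SD. Since 2 libraries were compared, many genes can lie this near by level alone. The distance also takes in the ratio, so a shared direction follows in part from how the nearest genes were picked.

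Part of the family seed also occurs in other miRNAs. The hexamer AGUGCA, bases 3 to 8 of the family's 3p strands, was searched within bases 1 to 9 of the mature strands in the RefSeq table. It was found there in 9 further genes, of which 8 were counted and 4 detected. The detected strands are shown with the hexamer in capitals.
miR-130a-3p: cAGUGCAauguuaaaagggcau
miR-130b-3p: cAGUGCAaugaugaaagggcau
miR-301a-3p: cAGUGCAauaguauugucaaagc
miR-350-5p: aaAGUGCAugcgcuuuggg
In the first 3, which belong to the Mir130 and Mir301 family, the hexamer takes bases 2 to 7, so their seed AGUGCAA is offset by 1 base from that of Mir148a. In miR-350-5p it takes bases 3 to 8, as in Mir148a, but the counts of Mir350 do not separate this strand from the 3p strand.

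In level Mir130a and Mir130b exceeded Mir148a in both libraries, and Mir301 and Mir350 lay between Mir148a and Mir152. Mir130a had 18414 CPM in replicate 1 and 18501 CPM in replicate 2, Mir130b 2815 and 3251 CPM, Mir301 1133 and 1003 CPM, and Mir350 223.2 and 223.0 CPM. The list summed to 22781 ± 278 CPM (SD, n = 2), most of it from Mir130a. The test called 1 of the 4 toward replicate 1 (Mir301, log2 ratio −0.18) and 1 toward replicate 2 (Mir130b, 0.21), and 2 were not called (Mir130a, 0.01, and Mir350, −0.00135), with a list median of 0.00272. Mir301b, a further gene of that family named after its values were seen, had 55.8 and 57.4 CPM. The search of the RefSeq table did not return Mir301b, so it is in neither the list nor its sum, and its sequence was not examined here. That table held no hairpin named Mir143, so the list and its sum may be incomplete. The other counted genes of the list, Mir130c, Mir291b, Mir6341 and Mir6389, had at most 1 read in a library.

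The list of other miRNAs linked to control of DNA methyltransferase messages held 9 genes, all counted and 7 detected. It contains the Mir29 genes, which act on Dnmt3a and Dnmt3b, and Mir126a, Mir143, Mir185, Mir342 and Mir101a. Its largest members far exceeded Mir148a in level, with Mir126a, an endothelial miRNA, at 24124 and 28452 CPM and Mir143, of smooth muscle, at 17564 and 18006 CPM. Mir342 stood at 2353 and 2857 CPM, above Mir148a in both libraries.

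The remaining detected genes of this list lay near Mir148b and Mir152 or lower. Mir185 had 199.8 and 213.1 CPM, Mir29a 164.1 and 124.0 CPM, Mir101a 146.3 and 124.0 CPM and Mir29c 49.5 and 45.8 CPM. Mir29b-1 (3 and 18 reads) and Mir29b-2 (0 and 6 reads) were not tested. They share 25 bases with each other, and Mir29c shares 22 bases with Mir29b-1 and Mir101a 20 bases with Mir101b, so reads of these 4 may have been set aside as mapping to several places and their values are uncertain.

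In the pool comparison the test called 2 of the 7 methyltransferase-linked genes toward replicate 1 and 3 toward replicate 2, with a list median log2 ratio of 0.04. Those higher in replicate 1 were Mir29a (−0.40) and Mir101a (−0.24), and those higher in replicate 2 were Mir342 (0.28), Mir126a (0.24) and Mir143 (0.04). Mir185 (0.09) and Mir29c (−0.11) were not called. The list had no common direction, and Mir29a had a log2 ratio close to those of Mir148b and Mir152. The messages of the methyltransferases themselves were not measured in these libraries.

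**Figure D4:**
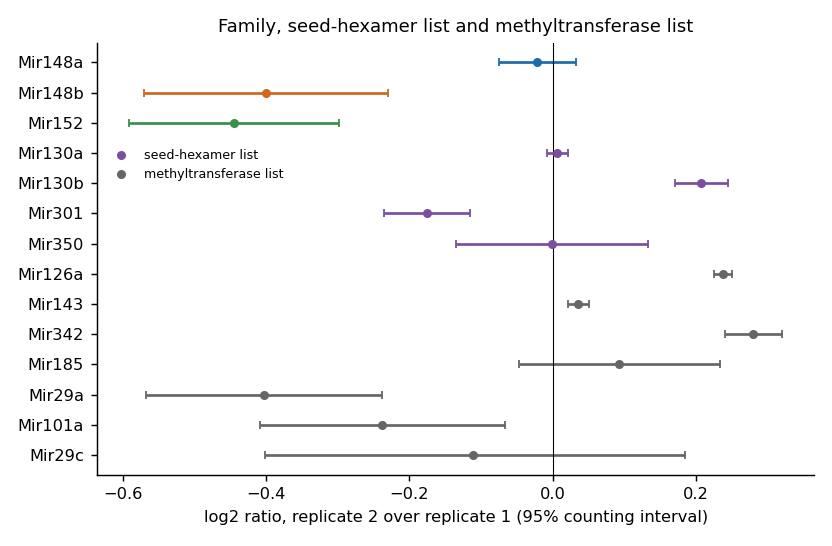
Points are log2 ratios of replicate 2 over replicate 1 with 95% counting intervals for the members, for the 4 detected genes with the seed hexamer (purple) and for the 7 detected genes linked to DNA methyltransferases (grey). The intervals of Mir148b and Mir152 lie wholly below 0, as do those of Mir29a, Mir101a and Mir301, and the interval of Mir148a spans 0.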

How the data were processed

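MicroRNA sequencing gave 1 library for each of 2 biological replicates. The deposited files hold raw counts of reads for each miRNA gene, on mm10 with GENCODE M4 per the deposited file lists. The columns hold reads on either strand, used here, and on each strand. Reads mapped to several places (30.6% and 29.7% of reads), unmapped reads (16.2% and 21.8%) and reads in no gene (2.19% and 3.01%) have lines of their own and stayed out of library sizes. No aligner or counter is named in the sources used here.

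Names came from GENCODE M21 by identifier without version (1894 of 1973 matched), sequences from RefSeq (GRCm38.p6). Of the members, 3 of 3 matched. Counts were scaled with TMM in edgeR 4.0.16 (R 4.3.3). Genes with at least 10 reads in each library were tested by exact binomial tests, adjusted over all of them, threshold 0.05. The test was checked on simulated counts with counting error only, so the check does not cover variation between pools. The edgeR common dispersion was taken over both libraries as 1 group. Python 3.11.15, scipy 1.17.1, pandas 2.3.3, Biopython 1.88 and matplotlib 3.10.9 were used.

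Named genes are the members, the 3 nearest genes to each, its neighbours by level, and detected genes of the seed and methyltransferase lists, plus tissue markers. Members and lists were chosen with earlier results of these data known. Alternatives were total-count scaling, DESeq2 1.42.0 size factors, other filters, reads of the gene's strand, Mir203 left out, levels per length, other totals and each replicate left out.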

Additional observations from a re-analysis of the deposited data

How the results depend on the processing

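Across 6 alternatives of scaling, filter, strand and totals, the log2 ratio of Mir148b ranged from −0.41 to −0.38 (exact binomial adjusted p from 4.74e-06 to 4.08e-05) and that of Mir152 from −0.46 to −0.42 (2.90e-09 to 6.00e-08), both called as higher in replicate 1 in each. The ratio of Mir148a was not called in any of them (exact binomial adjusted p from 0.306 to 0.949), and with DESeq2 size factors it changed sign, to 0.0032. The number of calls over all genes ranged from 165 to 186, and its share of tested genes was 26.3% with no filter and 66.8% with at least 100 reads, where the number of genes tested changed.

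The mean level of Mir148a was 1403 CPM on the gene's strand and 1472 CPM once Mir203 was removed from the totals, where the totals are smaller. Per kb of hairpin the levels were 13696, 1389 and 2493 CPM for Mir148a, Mir148b and Mir152, and the ratio of Mir148a over Mir152 was 5.62 and that of Mir152 over Mir148b 1.79. The family share was 0.182% of reads with Mir203 left out and 0.103% with multi-mapped reads added to the total. With each replicate left out, which leaves 1 library and no test, levels ranged from 1346 to 1366 CPM for Mir148a, 116.2 to 153.4 CPM for Mir148b and 154.1 to 209.8 CPM for Mir152, the family share from 0.161% to 0.174%, and the ratios from 8.91 to 11.6, 6.51 to 8.73 and 1.33 to 1.37. No paired analysis was possible because there is 1 group.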
